A study of Mus musculus with 12 samples.

Results

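Expression of 9 genes that mark the podocyte was examined in whole kidney tissue of mice: Nphs1, Magi2, Cd2ap, Podxl, Ptpro, Clic5, Synpo, Plce1 and Wt1. They were chosen by name as podocyte genes, and all 9 were found among the 22053 rows of the deposited table. All 9 were also among the 13148 genes tested. The podocyte is the epithelial cell that wraps the glomerular capillary with interlocking foot processes. Neighboring foot processes are bridged by the slit diaphragm, a thin sheet built around nephrin, which together with the basement membrane keeps plasma proteins out of the urine. Podocytes divide little after development, and loss of these cells or of slit diaphragm proteins is a known route to proteinuria and glomerular scarring.

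The 12 mice formed 3 groups of 4, with 1 library per mouse. All were wild-type C57BL/6 mice on their assigned diet from 8 to 16 weeks of age. Control mice ate the same diet without adenine and received PBS by weekly i.p. injection. CKD mice ate a 0.2% adenine diet, which injures the tubules and scars the kidney, and also received PBS. CKD+Fe mice ate the adenine diet and were given iron dextran i.p. each week at 0.5 g/kg. The labels gave neither a batch nor replicate numbers shared between groups, and mice are named here by their label numbers. The injury is directed at the tubule, and the RNA came from the whole organ, so fewer podocytes and less of a transcript per podocyte cannot be told apart, nor can more podocytes and a smaller mass of other cells.

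Values are FPKM, that is, fragments scaled to transcript length and to the mapped reads of each mouse. Levels can therefore be compared between genes. Between mice they are relative to the total of each mouse, and depend on what else its RNA holds. Differences between groups are log2 fold changes of FPKM + 1 from limma, with p values adjusted (Benjamini-Hochberg) across the 13148 genes tested, and a gene was called higher or lower at an adjusted p under 0.05. Adding 1 understates the change of genes with low values, Plce1 and Magi2 above all. Most genes were higher in CKD in these values: the typical gene had a log2 fold change of 0.50 (the median), and 54.6% of genes were called higher against 13.3% lower. Median-of-ratios rescaling, which sets the typical gene equal between mice, brought this median to 0.012 and the shares to 28.8% and 29.3%. The value after this rescaling is therefore given beside each CKD difference of the 9 genes. Genes at least 1 log2 unit from the group mean were most numerous in control mouse 042301 (215), CKD mouse 110310 (212) and CKD+Fe mouse 042702 (120). The next counts were 59 in control mouse 042310, 50 in CKD mouse 120102 and 88 in CKD+Fe mouse 062910. Mouse 042702 thus stood less apart from its group than the other 2. Proximal tubule markers, defining genes of the tissue, were present in every mouse and summed to between 2248 and 3524 FPKM in control mice. Read depth is not known, and the relative depth estimated from the steps between low FPKM values ran from 0.698 to 1.0.

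The podocyte genes spanned a wide range of levels in control kidneys. Podxl was the most abundant, at 38.7 ± 6.88 FPKM (SD, n = 4), above 82.4% of tested genes. Clic5, Synpo and Cd2ap followed at 16.2 ± 3.49, 16.1 ± 1.35 and 15.98 ± 1.63 FPKM and could not be ordered, since their ranges overlapped. Nphs1 (6.60 ± 2.06 FPKM) and Ptpro (5.55 ± 1.28 FPKM) were not separated either, and Ptpro overlapped in range with Wt1 (3.99 ± 0.778 FPKM), although Ptpro was the higher in all 4 mice. Magi2 (1.34 ± 0.357 FPKM) and Plce1 (0.645 ± 0.123 FPKM) lay below the others without overlap. In CKD kidneys Podxl was again first, and Cd2ap and Synpo came next, both above Clic5 in every mouse. Plce1 was then higher than Magi2 in all 4 CKD mice, the reverse of control mice.

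**Figure D1:**
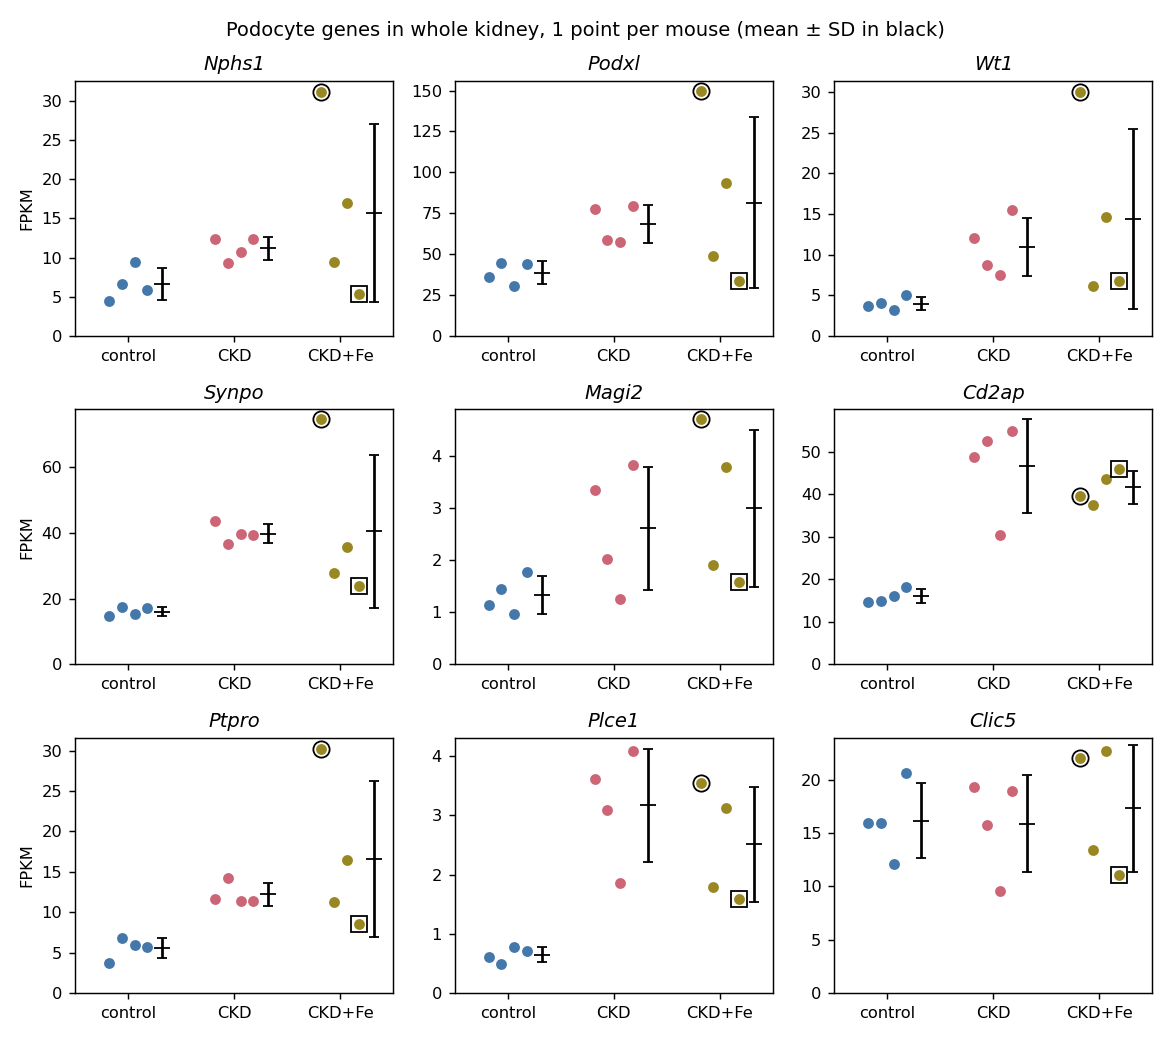
FPKM of the 9 podocyte genes in each mouse, by group, on a separate linear axis from 0 for each gene, with the group mean and SD in black. The circle marks CKD+Fe mouse 042702, which had the highest value of all 12 mice for 6 genes, and the square marks CKD+Fe mouse 122320.

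Promoter sequences of Ptpro and Clic5 are shown because these genes of the same membrane differed in CKD below (as deposited, Ptpro was called higher and Clic5 was not). After median-of-ratios rescaling neither was called. Each is the 250 bases before the start that the RefSeq promoter table gives (GRCm38.p6), 5′ to 3′ on the strand of the gene, and capitals mark matches to the motifs searched. The Ptpro window lies at chr6:137252049-137252298 and the Clic5 window at chr17:44188322-44188571, both on the + strand, before the gene start in the deposited table and outside every annotated transcript of the gene.
Ptpro: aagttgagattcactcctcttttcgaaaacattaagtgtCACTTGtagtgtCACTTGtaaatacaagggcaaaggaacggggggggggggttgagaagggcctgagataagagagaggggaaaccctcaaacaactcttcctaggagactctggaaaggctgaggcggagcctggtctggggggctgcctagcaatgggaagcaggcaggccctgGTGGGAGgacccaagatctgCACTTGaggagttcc
Clic5: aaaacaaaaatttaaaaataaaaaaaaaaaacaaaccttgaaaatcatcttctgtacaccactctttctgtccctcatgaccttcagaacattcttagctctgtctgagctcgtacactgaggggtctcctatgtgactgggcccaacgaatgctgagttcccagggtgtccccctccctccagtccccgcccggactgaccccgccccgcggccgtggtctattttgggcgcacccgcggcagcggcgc
The motifs, read on both strands, were GTGGGAG (the core of a binding site of Wt1), CANNTG (the E-box bound by basic helix-loop-helix factors such as Tcf21), TGCTGAC (part of a site of basic leucine zipper factors) and TATAAA (the TATA box). They occur in 8.25%, 66.2%, 3.81% and 12.4% of all 32851 promoters in the table. The table held promoters of 6 of the 9 genes, with 2 entries for Magi2. The windows of Nphs1, Plce1 and Cd2ap precede 1 of several starts and lie at least partly within a longer annotated transcript of the same gene. The WT1 core was present in the Ptpro window, 35 bases before the start, and in that of Cd2ap, on the reverse strand 42 bases before the start. An E-box was present in Magi2, Ptpro, Cd2ap and Plce1, with 3 in Ptpro, and the windows of Nphs1 and Clic5 held none of the 4 motifs. Whether these motifs bear on the expression of the genes was not tested.

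The first comparison asked how the podocyte genes stood in CKD against control kidneys. Of the 9 genes, 5 were called higher (Cd2ap, Plce1, Synpo, Wt1 and Ptpro) and 0 lower, where 54.6% of all genes were called higher and 13.3% lower. Of the other 4, Podxl, Nphs1 and Magi2 had positive values that did not pass the threshold, and Clic5 had a value near 0. The median log2 fold change of the 9 was 1.03, against 0.50 for the whole table, and 8 of the 9 exceeded that whole-table value. The CKD and control mice did not overlap for 6 genes, the 5 called and Podxl, with CKD higher, as was the case for 44.6% of all genes (10.5% were entirely below). With median-of-ratios rescaling 3 of the 9 were called higher (Synpo, Cd2ap and Plce1) and with quantile normalization the same number, beside 28.8% and 23.3% of all genes called higher and 29.3% and 25.6% called lower. The count of genes called was thus close to that of the whole table as deposited, and the positive direction of Magi2 turned under quantile normalization.

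At the slit diaphragm, Nphs1 encodes nephrin, the adhesion molecule that spans the slit. It lies on chromosome 7 from 30458315 to 30487223 (+ strand; all gene positions are for GRCm38). Nphs1 was at 4.50, 6.66, 9.39 and 5.87 FPKM in control mice 012811, 012822, 042301 and 042310. It was at 12.3, 9.30, 10.7 and 12.4 FPKM in CKD mice 021320, 022301, 110310 and 120102. Only control mouse 042301 and CKD mouse 022301 overlapped, and by a narrow margin. Nphs1 had a log2 fold change of 0.71 (standard error 0.38, limma adjusted p = 0.109; exact two-sided permutation p = 0.0571) and 0.20 after rescaling. Exons of Nphs1 share 597 bases with the antisense gene Nphs1os, and the strand setting of the quantification is not given in the sources used here, so reads of the pair may not have been separated.

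Magi2 encodes a scaffold protein that binds nephrin from inside the foot process, and lies on chromosome 5 from 19227036 to 20704792 (+ strand). Its values were low, at 1.14, 1.45, 0.974 and 1.78 FPKM in the control mice and 3.36, 2.02, 1.26 and 3.83 FPKM in the CKD mice, in the same order of mice. CKD mouse 110310 lay within the control range. The log2 fold change of 0.58 (standard error 0.28, limma adjusted p = 0.0796; 0.215 after rescaling) passed the threshold when this mouse was left out (0.78, limma adjusted p = 0.0203), and it was -0.25 with quantile normalization.

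Cd2ap encodes an adaptor that ties nephrin to the actin cytoskeleton. Unlike nephrin it is also made by tubule and immune cells. It lies on chromosome 17 from 42792951 to 42876424 (- strand). Cd2ap was at 14.6, 15.0, 16.2 and 18.2 FPKM in control mice, and at 48.8, 52.5, 30.4 and 54.7 FPKM in CKD mice. The groups were far apart, with CKD mouse 110310 the lowest of its group. Cd2ap had a log2 fold change of 1.46 (standard error 0.17, limma adjusted p = 8.54e-06; exact permutation p = 0.0286, the lowest value possible with groups of 4), or 2.92-fold between group means. It was 0.90 after rescaling (limma adjusted p = 0.00027). This was the largest log2 fold change of the 9 genes as deposited, but Plce1 was larger after rescaling (1.01) and with a pseudocount of 0.1 (2.09 against 1.51 for Cd2ap).

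Of the apical membrane proteins, Podxl encodes podocalyxin, a negatively charged sialoprotein that keeps foot processes apart and is also found on vascular endothelium. It lies on chromosome 6 from 31519488 to 31563981 (- strand). Podxl was at 35.8, 44.7, 30.4 and 44.0 FPKM in control mice, and at 77.6, 58.5, 57.7 and 79.4 FPKM in CKD mice. The groups did not overlap (exact permutation p = 0.0286), but the limma test missed the threshold, with a log2 fold change of 0.80 (standard error 0.35, limma adjusted p = 0.0542). The limma fit shares its estimate of spread with the CKD+Fe mice, in which Podxl varied widely. Without CKD+Fe mouse 042702 or mouse 122320 the adjusted p for Podxl was 0.0149 or 0.0208, and that for Nphs1 was 0.0363 or 0.0462. After rescaling the value for Podxl was 0.24.

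Ptpro encodes a receptor-type tyrosine phosphatase of the foot process surface, also known as GLEPP1, and lies on chromosome 6 from 137252319 to 137463233 (+ strand). It was at 3.75, 6.75, 5.99 and 5.71 FPKM in control mice, and at 11.7, 14.3, 11.4 and 11.4 FPKM in CKD mice. CKD mouse 022301 was the highest, and the other 3 CKD mice lay close together. Ptpro rose by 1.03 on the log2 scale (standard error 0.29, limma adjusted p = 0.00642), and its value was 0.52 after rescaling (limma adjusted p = 0.119).

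Clic5 encodes a chloride intracellular channel family protein that joins podocalyxin and ezrin at the foot process membrane, and lies on chromosome 17 from 44188572 to 44280168 (+ strand). It was at 15.9, 15.9, 12.1 and 20.6 FPKM in control mice, and at 19.3, 15.8, 9.52 and 18.9 FPKM in CKD mice. The CKD range held 3 of the 4 control mice. Clic5 had a log2 fold change of -0.047 (95% interval -0.60 to 0.51, limma adjusted p = 0.877), and after rescaling it was -0.59 (limma adjusted p = 0.0541). Clic5 was the only one of the 9 genes below the whole-table median in CKD, as deposited and after this rescaling.

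Synpo encodes synaptopodin, an actin-binding protein of foot processes, and lies on chromosome 18 from 60593973 to 60660142 (- strand). It was at 14.6, 17.3, 15.2 and 17.1 FPKM in control mice, and at 43.7, 36.6, 39.5 and 39.3 FPKM in CKD mice. Both groups were tight, with SDs of 1.35 and 2.94 FPKM. Synpo rose by 1.26 on the log2 scale (standard error 0.26, limma adjusted p = 0.000774), or 2.48-fold between group means, and the value was 0.71 after rescaling (limma adjusted p = 0.0253).

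Plce1 encodes phospholipase C epsilon, a signaling enzyme whose loss causes inherited nephrotic syndrome, and lies on chromosome 19 from 38481109 to 38785030 (+ strand). It was at 0.604, 0.493, 0.772 and 0.711 FPKM in control mice, and at 3.62, 3.09, 1.87 and 4.09 FPKM in CKD mice. The lowest CKD mouse, 110310, was still above the highest control mouse. This gave a log2 fold change of 1.31 (standard error 0.21, limma adjusted p = 0.000127) and 1.01 after rescaling (limma adjusted p = 0.000652). The ratio of group means was 4.91, the largest of the 9 genes.

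Wt1 encodes a zinc finger transcription factor that podocytes keep into adult life and that is also present in mesothelium. It lies on chromosome 2 from 105126529 to 105173616 (+ strand). Wt1 was at 3.65, 4.01, 3.24 and 5.05 FPKM in control mice, and at 12.02, 8.69, 7.55 and 15.6 FPKM in CKD mice. The groups did not overlap, and the spread was wider in CKD. Wt1 had a log2 fold change of 1.23 (standard error 0.38, limma adjusted p = 0.0112) and 0.74 after rescaling (limma adjusted p = 0.0979). Of 6 mesothelium markers, 0 of the 3 tested were called in this comparison, and the other 3, Lrrn4, Muc16 and Bnc1, had a mean of 0 FPKM in control mice. The summed mesothelium markers ran from 0.215 to 9.14 FPKM in control and from 0.932 to 9.78 FPKM in CKD mice, and their part in the Wt1 result was not tested.

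**Figure D2:**
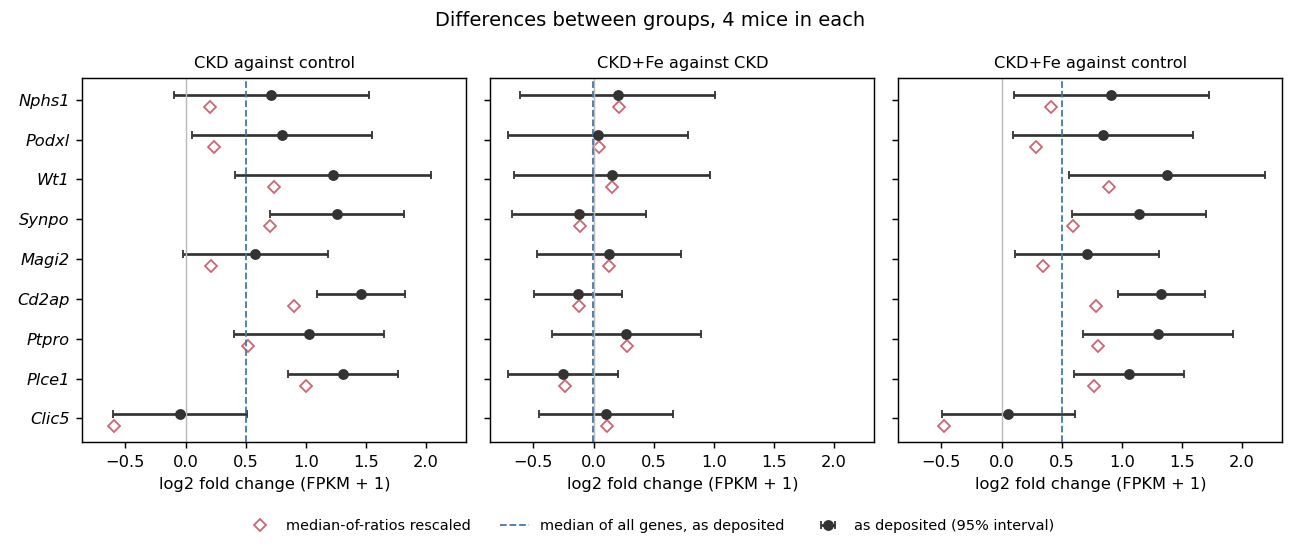
Log2 fold change of FPKM + 1 for each podocyte gene in the 3 comparisons, 4 mice against 4, with the 95% interval of the limma fit (filled) and the value after median-of-ratios rescaling (open). The dashed line is the median of all 13148 genes as deposited. Rescaling moved every gene down in both comparisons with control and turned Clic5 below 0 in CKD+Fe against control, while it made little difference between the CKD groups.

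The call of these 5 genes did not rest on any single mouse, since all 5 were called in each of the 12 fits that left out 1 mouse. Over those fits the log2 fold change ran from 1.37 to 1.65 for Cd2ap, from 1.21 to 1.48 for Plce1, from 1.21 to 1.30 for Synpo, from 1.05 to 1.37 for Wt1 and from 0.88 to 1.12 for Ptpro. When mice 042301, 110310 and 042702 were left out together, 8 of the 9 genes were called higher, all but Clic5 (0.043), and the share of all genes called higher was 59.4%.

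The ratio of each gene to Nphs1 in the same mouse does not depend on how mice are scaled to each other. On the log2 scale the ratio of Plce1 to Nphs1 lay between -3.76 and -2.90 in control mice and between -2.53 and -1.59 in CKD mice, with no overlap. It was the only one of the 8 ratios for which the CKD and control mice did not overlap. The share of all genes whose ratio to Nphs1 separates these groups was not computed. Its control values rest on Plce1 levels below 1 FPKM. Means of the ratio of Podxl to Nphs1 were 2.59 in control and 2.60 in CKD mice, and those of Magi2 to Nphs1 were -2.29 and -2.22. The ratio of Clic5 to Nphs1 had means of 1.32 in control and 0.46 in CKD mice, with overlapping ranges. The ratio of Cd2ap to Nphs1 had means of 1.32 and 2.03, also with overlap.

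**Figure D3:**
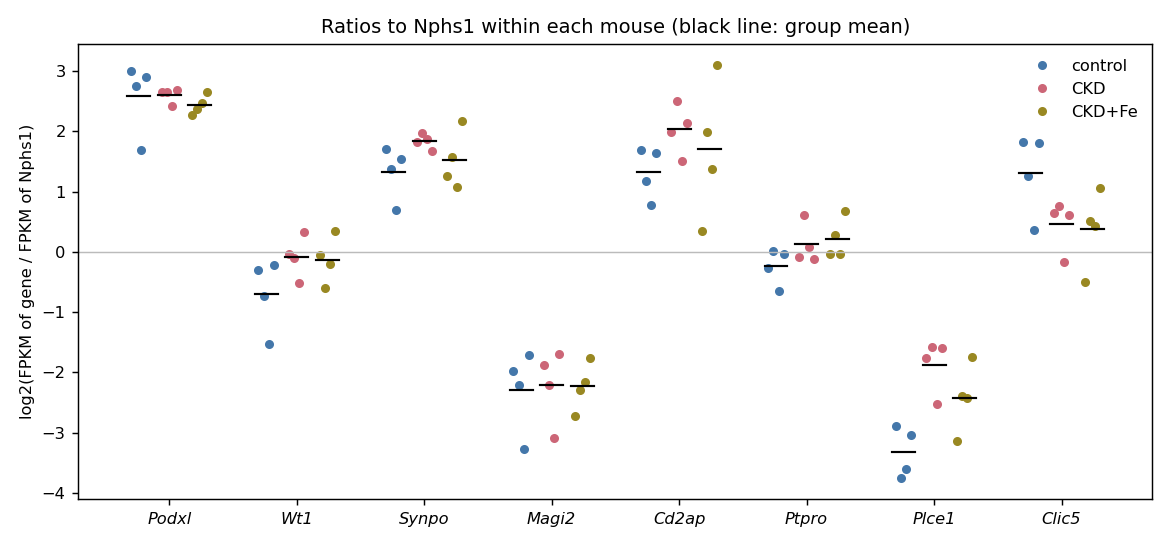
Log2 ratio of the FPKM of each podocyte gene to that of Nphs1 within each mouse, with group means as black lines and groups by color. Of the genes plotted, the CKD and control points separate for Plce1 alone, and the share over all genes was not computed. The Cd2ap ratio of CKD+Fe mice spreads from 0.35 to 3.11.

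The second comparison asked whether weekly iron dextran changed these genes within CKD. Of the 9 podocyte genes, 0 were called higher or lower in CKD+Fe against CKD mice by limma, and 0 had an unadjusted p under 0.05, the smallest being 0.249 for Plce1. Over all genes 0.00761% were called higher and 0.0% lower, as deposited and with both rescalings. No podocyte gene separated the groups, as did 1.35% (all above) and 1.09% (all below) of all genes. The log2 fold changes ran from -0.26 for Plce1 to 0.27 for Ptpro, with a median of 0.10 against -0.001 over all genes. Intervals were wide for most genes: the 95% interval was -0.61 to 1.01 for Nphs1, -0.71 to 0.79 for Podxl and -0.67 to 0.97 for Wt1. It was narrowest for Cd2ap, -0.49 to 0.23.

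The iron-treated mice were spread widely for most of these genes. Nphs1 was at 31.2, 9.37, 16.9 and 5.34 FPKM in CKD+Fe mice 042702, 062910, 111710 and 122320. Mouse 042702 was above every other mouse of the study, whereas mice 062910 and 122320 were within the control range. The highest value was 5.84 times the lowest, against 1.33 times among the CKD mice.

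Podxl followed the same order, at 150, 48.7, 93.8 and 33.6 FPKM in these mice, as did Synpo at 74.5, 27.8, 35.6 and 23.9 FPKM and Ptpro at 30.3, 11.3, 16.4 and 8.49 FPKM. Wt1 was at 30.0, 6.19, 14.7 and 6.75 FPKM, Magi2 at 4.71, 1.91, 3.79 and 1.58 FPKM, and Plce1 at 3.55, 1.79, 3.13 and 1.59 FPKM. Clic5 was at 22.0, 13.4, 22.7 and 11.1 FPKM. Mouse 042702 was the highest of its group for 7 of the 9 genes, all but Clic5 and Cd2ap, and mouse 122320 the lowest for 7, all but Wt1 and Cd2ap. In these 4 mice Cd2ap did not follow that order, at 39.6, 37.4, 43.6 and 45.9 FPKM, a 1.23-fold range in which mouse 122320 was the highest.

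Averaged over the 8 genes other than Cd2ap, mouse 042702 lay 0.87 log2 units above its group mean and mouse 111710 0.28 above. Mouse 062910 lay at -0.43 and mouse 122320 at -0.71. The median deviation of all genes in these mice was between -0.068 and 0.056. Among control mice the average deviation of the 8 genes ran from -0.17 to 0.15, and among CKD mice from -0.32 in mouse 110310, the lowest of its group for 7 of the 9 genes, to 0.24.

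**Figure D4:**
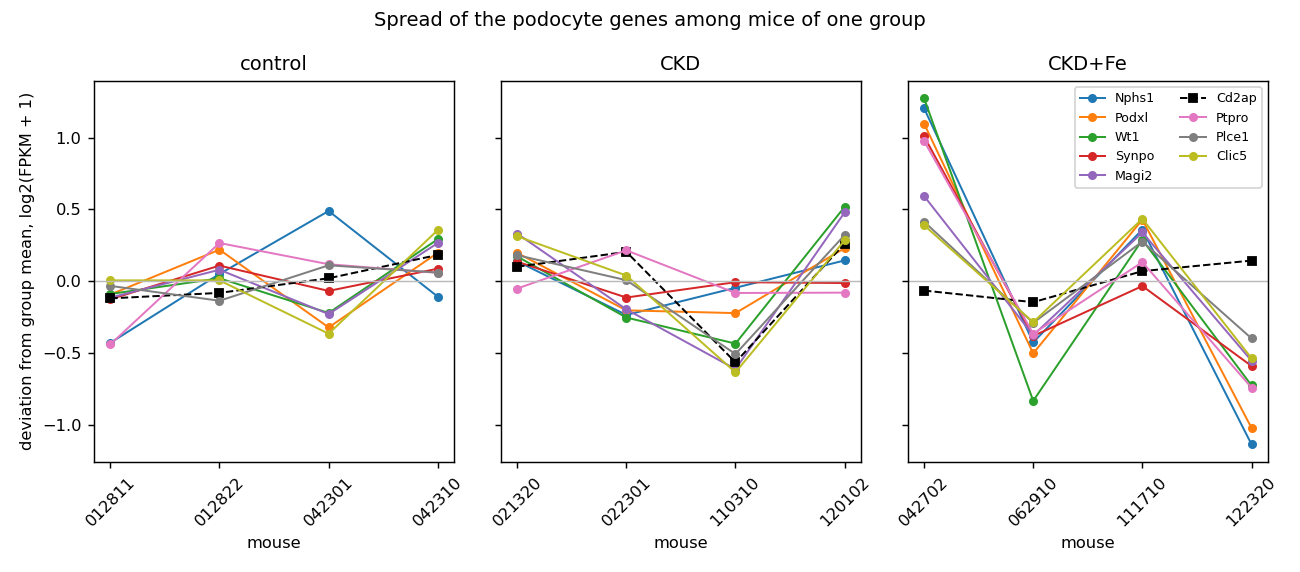
Deviation of each podocyte gene from its group mean, in log2(FPKM + 1), for the 4 mice of each group. Lines join the values of a gene and imply no order of mice, and Cd2ap is dashed. In CKD+Fe mice 8 genes are high in 042702 and low in 062910 and 122320, while Cd2ap stays between -0.147 and 0.143.

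The sign of the iron comparison turned for 6 of the 9 genes when mouse 042702 was left out. Without it the log2 fold change of CKD+Fe against CKD was -0.20 for Nphs1 (0.20 with it), -0.33 for Podxl (0.039), -0.28 for Wt1 (0.15), -0.068 for Magi2 (0.13), -0.052 for Ptpro (0.27) and -0.027 for Clic5 (0.10). None of these values passed the threshold with or without the mouse. Leaving out other mice turned some signs too. Podxl was -0.029 without CKD mouse 022301 and -0.036 without CKD mouse 110310. The lowest values with 1 mouse left out were -0.075 for Magi2 and -0.109 for Clic5, each with a mouse other than 042702 left out. With mice 042702 and 122320 both left out, the values ran from -0.33 for Synpo to 0.18 for Clic5, again with 0 genes called. Other cell markers moved with this mouse. Its summed proximal tubule markers were the lowest of the group, 543 FPKM against 940 to 1101 FPKM in the other 3, and its other nephron markers were 2183 FPKM against 3310 to 3515 FPKM. Its markers of glomerular endothelium and mesangium summed to 154 FPKM against 84.1 to 97.3 FPKM, and its leukocyte markers to 2336 FPKM against 904 to 1763 FPKM. Most of the leukocyte sum was Lyz2 alone, which ran from 745 to 1969 FPKM in CKD+Fe mice. The sum of the 9 podocyte genes was 386 FPKM against 138 to 251 FPKM. The part of these differences in tissue makeup in the podocyte values was not tested.

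The covariation among mice is described by the correlation of deviations from group means over the 12 mice, which share a scaling within each mouse. The 28 pairs among the 8 genes without Cd2ap had Pearson correlations from 0.53 to 0.94, with a median of 0.82. Leaving out CKD+Fe mice 042702 and 122320, the mice furthest from the middle, lowered the median to 0.55. The 8 pairs with Cd2ap had a median of 0.16, ranging from -0.092 to 0.56, and a median of 0.54 without these mice. Without these mice the pairs with Cd2ap still ran from 0.19 with Synpo to 0.87 with Plce1. The 2 mice were picked on the 8 genes without Cd2ap, so this change cannot be set down to them alone.

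Of 12798 other genes with a mean of at least 1 FPKM, the 10 whose deviations were most like the mean of the 8 podocyte genes were Tspan2 (r = 0.97 over 12 mice), Shisa3 (0.96), Arhgap28 (0.96), Ddn (0.94), Frmd6 (0.93), Lmx1b (0.93), Srgap1 (0.93), Rnf150 (0.93), Robo2 (0.92) and Tnrc18 (0.92). The median over all these genes was 0.10. Ddn (dendrin, a slit diaphragm-associated protein), Lmx1b (a podocyte transcription factor) and Robo2 (a receptor that binds the nephrin complex) are known podocyte genes. All 10 had their highest CKD+Fe value in mouse 042702. This follows largely from how they were chosen, since the mean of the 8 genes was furthest from the middle in that mouse. Tspan2 kept an r of 0.95 without mice 042702 and 122320, and Tnrc18 had 0.75. In CKD against control, Tspan2 (log2 fold change 0.55, limma adjusted p = 0.0544), Ddn (0.74, limma adjusted p = 0.11; 0.30 after rescaling) and Lmx1b (0.24, limma adjusted p = 0.389; -0.013 after rescaling) did not pass the threshold. The rest of the 10 were called higher, as were 54.6% of all genes. Robo2 rose by 1.05 on the log2 scale (limma adjusted p = 0.0012; 0.61 after rescaling) and Rnf150 by 1.55 (limma adjusted p = 8.08e-06). Shisa3, Arhgap28, Frmd6, Srgap1 and Tnrc18 were at 1.07, 0.98, 1.35, 1.29 and 0.72.

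The third comparison, CKD+Fe against control, shares its mice with the other 2 and is not independent of them. Of the 9 podocyte genes, 8 were called higher and 0 lower, where 54.4% of all genes were called higher and 11.0% lower. The log2 fold changes ran from 0.71 for Magi2 to 1.38 for Wt1 among the 8, and Clic5 was at 0.056 (95% interval -0.50 to 0.61). The CKD+Fe mice were all above the control mice for 5 genes, Wt1, Synpo, Cd2ap, Ptpro and Plce1, as they were for 50.4% of all genes (9.85% were all below). After median-of-ratios rescaling 3 genes were called higher (Cd2ap, Ptpro and Plce1), beside 27.7% of all genes higher and 27.5% lower. With quantile normalization 2 were called higher (Synpo and Cd2ap), beside 19.8% higher and 22.6% lower. The log2 fold changes of Clic5 under both rescalings (-0.48 and -0.39) and of Magi2 with quantile normalization (-0.12) were negative.

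The calls of Nphs1 (0.91, limma adjusted p = 0.0464), Podxl (0.84, limma adjusted p = 0.0466) and Magi2 (0.71, limma adjusted p = 0.0379) in this comparison were close to the threshold, and their groups overlapped (exact permutation p = 0.2, 0.143 and 0.0571). After rescaling they were 0.41, 0.285 and 0.345, and none was called. Each was lost without mouse 042702, with log2 fold changes of 0.51, 0.48 and 0.51. Over the 12 fits that left out 1 mouse, Nphs1 was called in 3, Podxl in 2 and Magi2 in 7, while the other 5 called genes were called in all 12. Against the same control mice, Cd2ap, Synpo and Plce1 were at 1.46, 1.26 and 1.31 in CKD and at 1.33, 1.14 and 1.06 in CKD+Fe. The other 6 genes went the opposite way, with larger values in CKD+Fe. Among them Wt1 went from 1.23 to 1.38, Ptpro from 1.03 to 1.30 and Nphs1 from 0.71 to 0.91. None of the 9 genes was called between CKD+Fe and CKD mice.

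Other genes of the slit diaphragm and its signaling gave counts of the same kind in CKD against control. Of 14 such genes, 12 were tested, and 10 were called higher and 0 lower, with a median log2 fold change of 0.95. Kirrel, which encodes Neph1, the partner of nephrin in the slit, was at 1.74 ± 0.109 FPKM in control and 9.94 ± 2.14 FPKM in CKD mice (log2 fold change 1.98, standard error 0.23, limma adjusted p = 8.13e-06; 1.55 after rescaling), and Efnb1, an ephrin ligand, rose least among those called (0.69, limma adjusted p = 0.0224; 0.16 after rescaling).

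Of 14 genes of the podocyte cytoskeleton and adhesion, 11 were called higher and 1 lower, beside 54.6% and 13.3% of all genes. Most of them are made by many kidney cells. Inf2, a formin that controls actin assembly, had the largest rise (1.69, limma adjusted p = 4.14e-05; 1.28 after rescaling), and Arhgap24, a Rac-inactivating protein, fell by 0.43 on the log2 scale (limma adjusted p = 0.0107; -1.001 after rescaling). Of 12 tested podocyte transcription and secreted factors, 7 were called higher and 1 lower, close to the same shares of all genes. Bmp7, a secreted growth factor also made by tubules, fell from 12.3 ± 0.923 to 7.96 ± 1.65 FPKM (-0.59, limma adjusted p = 0.00648; -1.12 after rescaling). In CKD+Fe against CKD, 0 genes of these 3 lists were called. The lists have no test of their own, and after rescaling their medians were 0.53, 0.51 and 0.15, with 6, 8 and 3 genes called higher and 1 lower in each. The shares of all genes after rescaling were 28.8% higher and 29.3% lower.

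Markers of other cells that could contribute some of these transcripts moved as well. All 7 parietal epithelium genes, the lining of Bowman's capsule, were called higher in CKD, and their sum ran from 53.2 to 113 FPKM in control and from 256 to 419 FPKM in CKD mice. The largest rise was that of Vcam1 (4.61, and 4.11 after rescaling) and the smallest that of Pax2 (0.55, and 0.035 after rescaling). Several of these genes are also made by injured tubules. Leukocyte markers summed to 51.8 to 128 FPKM in control and 1116 to 2198 FPKM in CKD mice, with 5 of 6 called higher. In CKD mice most of this sum was Lyz2 alone, at 952.5 to 1915 FPKM. All 7 proximal tubule markers were called lower, summing to 486 to 912 FPKM in CKD mice. Of 8 endothelium markers 0 were called higher and 1 lower, Kdr, and of 5 tested genes of glomerular endothelium and mesangium 4 were called higher. After rescaling these counts were 0 higher and 5 lower for endothelium, and 2 higher and 1 lower for glomerular endothelium and mesangium. Over all genes, 54.6% were called higher and 13.3% lower as deposited, and 28.8% and 29.3% after rescaling. How much of the podocyte gene differences came with these shifts was not tested.

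**Figure D5:**
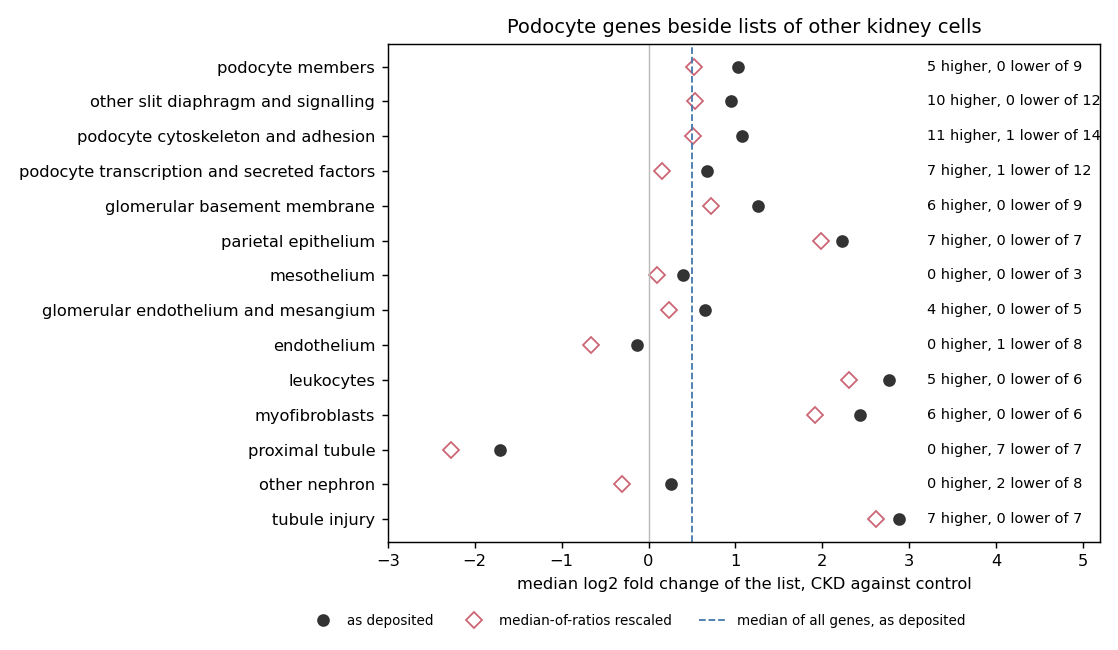
Median log2 fold change in CKD against control of the 9 podocyte genes and of 13 other gene lists, as deposited (filled) and after median-of-ratios rescaling (open), with the number of tested genes called higher and lower as deposited. The podocyte median of 1.03 lies above the 0.50 of all genes and below the medians of podocyte cytoskeleton and adhesion, glomerular basement membrane, parietal epithelium, leukocyte, myofibroblast and tubule injury genes. The endothelium and proximal tubule medians are below 0 under both scalings and that of other nephron genes only after rescaling.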

How the data were processed

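Per the submitters' processing notes, the authors used bcl2fastq 2.19, STAR 2.5.2 and Cufflinks 2.1.1 with GRCm38, and they deposited FPKM per protein-coding gene and mouse from stranded single-end libraries (50 cycles). Of the 22053 rows, 30 values in 17 genes were marked as failed and set to missing, none in the 9 genes. FPKM are not counts, so log2(FPKM + 1) was fitted in R 4.3.3 with limma 3.58.1 (variance trend, all 12 mice in 1 fit), over genes reaching 1 FPKM in 4 or more mice. Tests were two-sided. Exact permutation tests used all 70 arrangements. Both were tested on simulated data. Gene starts in the table count from 0 and are printed from 1. The members and lists were chosen with earlier results of these data known. Named from other lists were the genes with the highest and lowest log2 fold change among those called and the 10 genes most like the 8 members without Cd2ap. Lrrn4, Muc16, Bnc1, Col4a3, Col4a4, Hspg2, Lamb2 and Lamc1 were named after their values were seen. Foxc2 was not matched. Some genes of this rule are not reported here. Alternatives were another pseudocount, filters, rescalings, fits, thresholds and each mouse left out.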

Additional observations from a re-analysis of the deposited data

Results flagged for a closer look

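In CKD, Ptpro of mouse 022301 (14.25 FPKM) was far above the other 3 mice, which lay between 11.41 and 11.68 FPKM. The gap was 0.904 of the range of the group, over Dixon's critical value. This was 1 of 27 groups of 4 mice examined, of which chance alone would single out about 1 in 20. The value lies within the range of the CKD+Fe mice, and Ptpro in CKD against control was called without this mouse as well.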

How the results depend on the processing

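The 5 genes called higher in CKD against control became 3 with median-of-ratios rescaling and 3 with quantile normalization, and 8 with rescaling to equal sums, with array quality weights, at an adjusted p under 0.5, or without mice 042301, 110310 and 042702. The share of all genes called higher moved too, to 28.8%, 23.3%, 66.9%, 60.5%, 69.1% and 59.4% in the same order, from 54.6%. With only the 2 compared groups fitted, 7 were called higher, beside 52.5% of all genes. The count was 4 with a filter at a mean of 5 FPKM and 4 at an adjusted p under 0.01, beside 49.5% and 44.6%. The 8 called in CKD+Fe against control became 5 without a filter, 4 with a filter at a mean of 5 FPKM (Magi2 and Plce1 then untested), 3 and 2 with the rescalings named first, 5 at an adjusted p under 0.01, and 5 without these 3 mice, beside 35.0%, 48.9%, 27.7%, 19.8%, 43.6% and 57.8% of all genes, from 54.4%. In CKD+Fe against control 6 were called with only the 2 compared groups fitted and 7 with array quality weights, beside 55.5% and 62.8%. Over the fits leaving out 1 mouse the counts of CKD and of CKD+Fe against control ran from 5 to 7 and from 5 to 8. The count between CKD+Fe and CKD was 0 in every setting run.

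Signs turned in these cases. Against control, Clic5 in CKD was 0.21 with equal sums, 0.105 with array weights and 0.043 without the 3 mice, and in CKD+Fe it was -0.482, -0.39, -0.003 and -0.197 with median-of-ratios, quantile normalization, array weights and the 3 mice left out. Magi2 with quantile normalization was -0.251 in CKD and -0.122 in CKD+Fe. In CKD+Fe against CKD with array weights, Nphs1 was -0.067, Podxl -0.234, Wt1 -0.2, Magi2 -0.157 and Clic5 -0.108. Without the 3 mice they were -0.215, -0.402, -0.42, -0.273 and -0.239, and Ptpro was -0.08. Podxl was -0.001 with equal sums, and Wt1 was -0.123 without mice 042702 and 122320, a setting added after seeing the data. With each mouse left out, values of CKD+Fe against CKD ran from -0.2 to 0.581 for Nphs1, -0.328 to 0.38 for Podxl, -0.275 to 0.429 for Wt1, -0.454 to 0.079 for Synpo, -0.075 to 0.315 for Magi2, -0.052 to 0.521 for Ptpro and -0.109 to 0.282 for Clic5. Clic5 ran from -0.169 to 0.165 in CKD and from -0.089 to 0.235 in CKD+Fe against control. The causes were not tested. No paired analysis was possible because the groups share no replicate numbers. FPKM are relative to each mouse's total, and read depth is unknown, so counting error could not be given.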

Other observations

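The glomerular basement membrane, which podocytes lay down together with endothelial cells, was represented by 9 genes. In CKD against control 6 of the 9 were called higher and 0 lower by limma as deposited, and 5 after median-of-ratios rescaling, with medians of 1.26 and 0.72. Over all genes, 54.6% were called higher and 13.3% lower as deposited, and 28.8% and 29.3% after rescaling. Not called as deposited were Col4a3 (0.091, and -0.46 after rescaling), Col4a4 (0.153, and -0.399) and Hspg2 (0.954, and 0.41). Agrn, which encodes the heparan sulfate proteoglycan agrin and is also made by tubules, rose from 31.5 ± 12.4 to 145 ± 32.9 FPKM (SD, n = 4; log2 fold change 2.21, limma adjusted p = 6.43e-06; 1.65 after rescaling). Col4a5, a collagen IV chain of the mature membrane, rose from 7.55 ± 2.54 to 14.3 ± 3.62 FPKM (0.84, limma adjusted p = 0.00426), which was 0.32 after rescaling (limma adjusted p = 0.209). Across mice, deviations of Agrn and Col4a5 correlated with those of the 8 podocyte genes at r of 0.32 each over 12 mice. The other basement membrane genes ran from -0.054 for Lamc1 to 0.46 for Lamb2. Col4a3, Col4a4 and Hspg2 were at 0.101, 0.022 and 0.072, near or below the median of 0.102 over all genes compared. In CKD+Fe against CKD 0 of the 9 were called.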
